A study of Mus musculus with 18 samples.

Results

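Cells make cholesterol from acetyl-CoA, take it up from lipoproteins, store it as esters and export it, and the genes for these steps were followed here while mouse stem cells went from primed to naive pluripotency. The 31 genes were picked by symbol and fall into 5 groups by role. They are 7 enzymes of the mevalonate arm, 11 enzymes of the squalene and sterol arm, 4 genes that control the transcription factor SREBP2, 4 genes of uptake and intracellular transport, and 5 genes of efflux, esterification and the oxysterol receptors LXR. All 31 were among the 25239 symbols of the deposited table, and all 31 passed the low-count filter that left 17545 genes for testing.

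RNA was sequenced from 18 libraries, 3 in each of 6 groups, all labelled as mouse embryo stem cells. D3, D5 and D8 are cells on days 3, 5 and 8 of the transition and are labelled transient. The rES are labelled naive and stand at its end. ESC are mouse embryonic stem cells, the naive cells from outside the transition. EpiSC are the primed cells of day 0 from which the transition starts. The sources used here do not give the strain, the cell line, the culture medium or the way the transition was started. They do not say either whether replicates were separate cultures or the rES a single line, and the p-values therefore cover the spread between these libraries and no more.

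Cholesterol synthesis runs in 2 arms. In the mevalonate arm, acetyl-CoA is built up to farnesyl diphosphate, which also feeds protein prenylation, ubiquinone and dolichol. In the sterol arm, farnesyl diphosphate is joined to squalene, closed to lanosterol and trimmed to cholesterol. When sterol is scarce in the endoplasmic reticulum, the escort protein SCAP carries SREBP2 to the Golgi, where it is cleaved, enters the nucleus and switches on most enzymes of both arms. When sterol is plentiful, INSIG proteins hold SCAP back, and oxysterols activate LXR, which switches on exporters such as ABCA1 and ABCG1.

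Levels are counts per megacount of the scaled library size (CPM), and the libraries held 58.4 to 101.6 megacounts each. Differences are on the log2 scale with an approximate standard error, and were tested with edgeR's quasi-likelihood test. A gene is called higher or lower where its Benjamini-Hochberg adjusted p over all genes tested is under 0.05. Because all the RNA of a culture was pooled in a library, fewer cells of a type and less RNA per cell cannot be told apart.

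Markers matched the labels of the end points. All 7 naive markers were higher and all 6 primed markers lower in rES and in ESC than in EpiSC. Libraries of D3 to D8 also held more RNA of genes that mark other cell types. The summed level of 9 trophoblast markers ran at 1659.9 to 1819.7 CPM at D3, 1639 to 1821 at D5 and 1086 to 1313 at D8, against 7.18 to 12.96 in EpiSC, and all 9 were called higher at each of the 3 days, with Cdx2 at 0 in EpiSC. The 9 fibroblast markers summed to 588 to 759 CPM at D3, 826 to 911 at D5 and 1039 to 1712 at D8, against 80.4 to 98.1 in EpiSC. Of these, 8, 7 and 7 were called higher on those days, and 0, 2 and 2 lower. The 10 markers of primitive and visceral endoderm summed to 99.3 to 112 CPM at D8, against 7.13 to 8.69 in EpiSC, with Ttr at 0 in every group but D8. The erythroid markers summed to 156 to 184 CPM at D5, against 0.353 to 0.840 in EpiSC, with 3 globin genes at 0 in EpiSC. In rES the same 4 lists summed to 171 to 177, 215 to 231, 18.3 to 20.9 and 0.588 to 1.12 CPM. Although the fibroblast sum was above that of EpiSC, 6 of the 9 fibroblast markers were called lower in rES than in EpiSC and 3 higher. In ESC the 4 lists summed to 86.5 to 94.6, 218 to 264, 10.3 to 13.5 and 0.983 to 1.23 CPM, in the same order. Of the 9 fibroblast markers 7 were called higher and 1 lower in ESC than in EpiSC. The part of cells of these other types in the values of D3, D5, D8, rES and ESC below was not tested.

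The summed levels of both arms of synthesis were highest in EpiSC, and rES ended below ESC. The 7 mevalonate enzymes together stood at 2314 ± 233 CPM in EpiSC, 1420.1 ± 24.9 at D3, 1192 ± 30 at D5, 807 ± 73.4 at D8, 873 ± 7.92 in rES and 1189.8 ± 58.9 in ESC (SD, n = 3). The 11 sterol enzymes together stood at 1929 ± 169 CPM in EpiSC, 1512 ± 42.9 at D3, 1725 ± 53.4 at D5, 1361 ± 210.3 at D8, 878 ± 15.3 in rES and 1359 ± 44.6 in ESC. The mevalonate sum had its lowest mean at D8, where the libraries overlapped those of rES, and the sterol sum was lowest in rES. By chi-square per gene D8 replicate 3 stood apart, at 99.8 and 94.3 against replicates 1 and 2, and 36.8 between these. By correlation of log2 CPM it did not, at 0.9742 with replicate 1 and 0.978 with replicate 2, and 0.9778 between these. At D3, replicates 1 and 3 had a chi-square per gene of 88.2. Of the D8 libraries, replicate 3 had the lowest sum of the 18 enzymes (1878 CPM, with 2445 and 2180.1 in replicates 1 and 2) and the lowest efflux sum (1173, with 1474 and 1617). Its sum of the 7 naive markers was the highest of the 3, at 1537 CPM with 867 and 1051 in the others. Without this library 12 of the 31 genes were called higher and 17 lower at D8 than in EpiSC, the counts also found with it. For 15 of the 31 genes EpiSC was the group with the highest mean and for 8 it was D8, while rES was lowest for 14 and EpiSC for 8. The shares of all genes with these orders were not computed, so the counts only describe the 31.

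**Figure D1:**
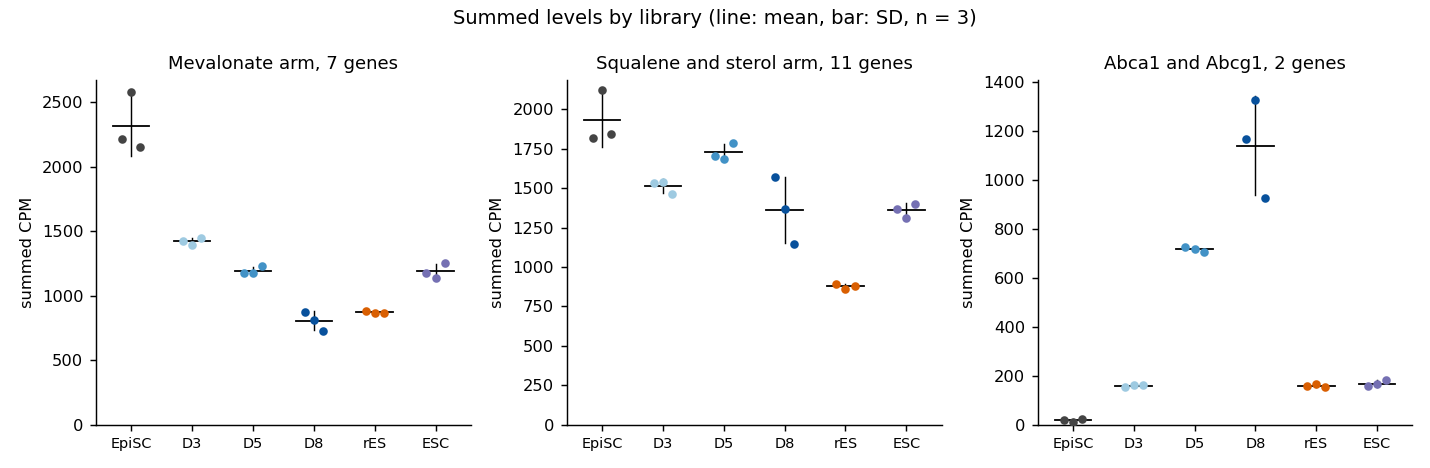
Summed level in CPM of the 7 mevalonate enzymes, of the 11 sterol enzymes, and of Abca1 and Abcg1 together, for EpiSC, D3, D5, D8, rES and ESC. Each point is 1 library, with the mean as a line and the SD as a bar (n = 3). The mevalonate sum is highest in EpiSC at 2314 ± 233 CPM, and the sterol sum is lowest in rES at 878 ± 15.3 CPM.

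The 5 comparisons with EpiSC share its 3 libraries. At D3, 13 of the 31 genes were called lower (41.9%) and 12 higher (38.7%) than in EpiSC, where 64.2% of all genes tested were called, 30.2% lower and 34.1% higher. At D5, 16 were lower and 12 higher, with 72% of all genes called (34.3% lower, 37.7% higher). At D8, 17 were lower and 12 higher, with 76.8% of all genes called (34.5% lower, 42.4% higher). In rES, 22 were lower (71%) and 8 higher (25.8%), with 69.4% of all genes called (37.5% lower, 31.9% higher). In ESC, 19 were lower (61.3%) and 9 higher (29%), with 67.3% of all genes called (36.1% lower, 31.2% higher). Most genes were called in each of these comparisons, so single calls are read here by their size and direction.

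Of the 18 synthesis enzymes, 9 were lower and 5 higher at D3, 12 lower and 5 higher at D5, and 13 lower and 4 higher at D8. In rES 16 of 18 were lower than in EpiSC (88.9%) and 1 was higher, and in ESC 14 were lower (77.8%) and 2 higher. The 5 enzymes higher at D3 became 2 with upper-quartile scaling or without EpiSC replicate 1 (Mvk, Fdft1 and Sc5d losing the call) and 3 without EpiSC replicate 3. The 1 higher in rES became 2 with RLE scaling, DESeq2, the 2 groups fitted alone or without EpiSC replicate 2, where Fdft1 was called as well. The median log2 difference of the 18 from EpiSC was -0.25 at D3, -0.56 at D5, -0.97 at D8, -1.29 in rES and -0.73 in ESC. The median over all genes tested was 0, 0.02, 0.18, -0.09 and -0.07 in the same order.

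**Figure D2:**
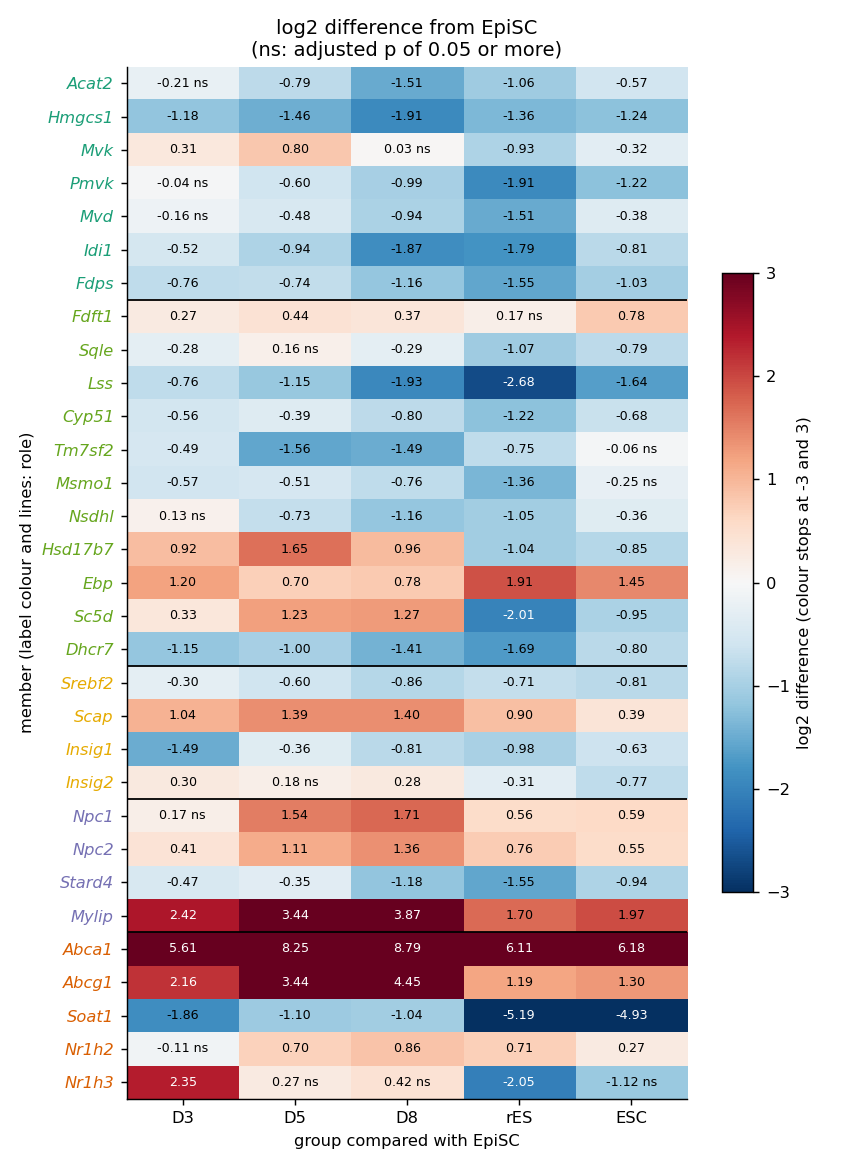
Log2 difference from EpiSC of each of the 31 genes (rows, grouped by role) at D3, D5, D8, in rES and in ESC (columns), printed in each cell and shown as colour that stops at -3 and 3, with ns where adjusted p is 0.05 or more. Hmgcs1, Idi1, Fdps, Lss, Cyp51 and Dhcr7 are lower in every column, Ebp is higher in every column, and Abca1 reaches 8.79 at D8.

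In the mevalonate arm all 7 enzymes were lower in rES than in EpiSC, with a median of -1.51, where 37.5% of all genes tested were lower. Hmgcs1, the cytosolic synthase that makes HMG-CoA, had 969, 1125 and 909 CPM in EpiSC, 479, 439 and 407 at D3, 363, 359 and 369.97 at D5, 264, 274 and 258 at D8, 399.7, 381 and 391 in rES, and 414, 399 and 458 in ESC. The EpiSC libraries all stood above every other library, and D8 was lowest. At D3 it averaged 442 ± 36.1 CPM against 1001 ± 111 in EpiSC (log2 difference -1.18 ± 0.08, adjusted p = 2.95e-10), and at D8 the log2 difference was -1.91 ± 0.08, adjusted p = 2.15e-13. It then went up at the last step, to 390.4 ± 9.37 CPM in rES against 265 ± 8.14 at D8 (log2 difference 0.56 ± 0.08, adjusted p = 3.65e-06). Per kilobase of exon it was also the most abundant enzyme in EpiSC, at 218 ± 24.3 CPM per kb, with Tm7sf2 the least at 5.59 ± 0.450.

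Idi1, the isomerase that makes dimethylallyl diphosphate, had 298, 359 and 274 CPM in EpiSC, 244, 217 and 189.9 at D3, 149, 163 and 175 at D5, 91.5, 89.2 and 73.6 at D8, 89.8, 91.6 and 87.1 in rES, and 178, 163 and 189.7 in ESC. It declined over D3, D5 and D8 without overlap between successive groups, and the rES libraries stayed at the D8 level while ESC stood higher. The log2 difference from EpiSC was -1.79 ± 0.11, adjusted p = 1.1e-10 in rES and -0.81 ± 0.11, adjusted p = 3.5e-06 in ESC.

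Pmvk, phosphomevalonate kinase, had 46.3, 55.3 and 61.1 CPM in EpiSC, 36.6, 49.2 and 72.2 at D3, 37.8, 32.9 and 36.6 at D5, 32.4, 23.2 and 26.02 at D8, 13.9, 14.8 and 14.5 in rES, and 22.3, 24.1 and 23.1 in ESC. The D3 libraries spread widely and overlapped EpiSC, and both rES and ESC lay below it. The log2 difference from EpiSC was -1.91 ± 0.18, adjusted p = 3.99e-08 in rES, against -0.04 ± 0.18, adjusted p = 0.877 at D3.

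Mvk, mevalonate kinase, took another course, with 44.5, 48.8 and 54.97 CPM in EpiSC, 49.6, 61.7 and 71.96 at D3, 88.5, 86.3 and 83.6 at D5, 56.5, 47.5 and 47.1 at D8, 26.1, 25.7 and 26.04 in rES, and 38.5, 37.6 and 42.4 in ESC. Its D5 libraries were the highest and its rES libraries the lowest. It was higher at D5 than in EpiSC (log2 difference 0.80 ± 0.11, adjusted p = 4.11e-06) and lower in rES (-0.93 ± 0.11, adjusted p = 9.4e-07). Its calls at D3 (0.31 ± 0.11, adjusted p = 0.0235) and in ESC (-0.32 ± 0.11, adjusted p = 0.0175) were lost under other scalings or a fit of the 2 groups alone. They were lost as well without EpiSC replicate 1 or 2 or D3 replicate 2 or 3 (adjusted p = 0.055 to 0.177 at D3), and without EpiSC replicate 3 or ESC replicate 1 or 2 (0.0533 to 0.0971 in ESC).

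Of the other mevalonate enzymes, Acat2, which joins 2 acetyl-CoA, was not called at D3 and was lower in the other 4 groups, with its lowest mean at D8 (log2 difference -1.51 from EpiSC). At D3 it was called lower with upper-quartile scaling, with counts divided by 4 and without EpiSC replicate 3 or D3 replicate 3 (log2 difference -0.28 to -0.22, adjusted p = 0.0133 to 0.0398). Mvd, which makes isopentenyl diphosphate, was not called at D3 and reached -1.51 in rES. Its call in ESC (-0.38 ± 0.14, adjusted p = 0.0286) was lost with RLE scaling, with DESeq2 and without EpiSC replicate 2 or 3 or ESC replicate 2 or 3 (adjusted p = 0.0571 to 0.118). Fdps, farnesyl diphosphate synthase, was lower in all 5 groups (-1.55 in rES). It shares 26.7% of its exon bases with Gm43738 on the same strand. Hmgcs1 and Idi1 share 12.1% and 9.22% of theirs with genes on the opposite strand that are not among the symbols used here.

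**Figure D3:**
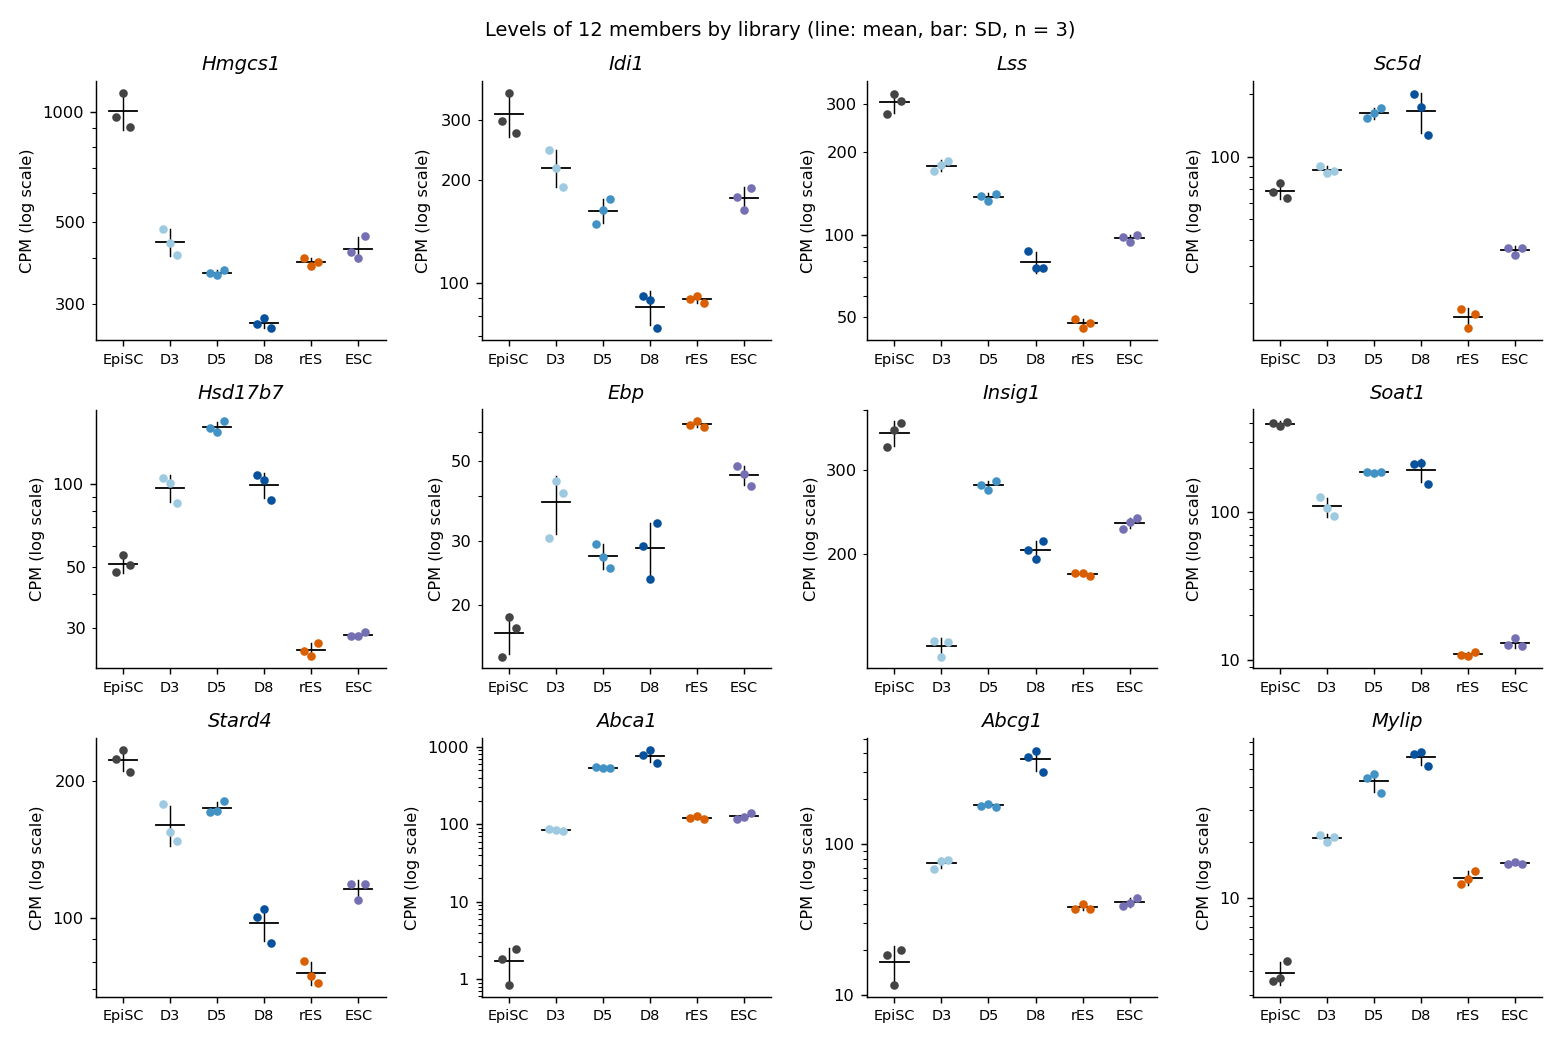
Level in CPM (log scale) of 12 genes, 1 point per library, with the mean as a line and the SD as a bar (n = 3), for EpiSC, D3, D5, D8, rES and ESC. Hmgcs1, Idi1 and Lss decline from EpiSC to D8, Sc5d and Hsd17b7 are highest at D5 or D8 and lowest in rES, and Abca1, Abcg1 and Mylip peak at D8.

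In the sterol arm 9 of 11 enzymes were lower and 1 higher in rES than in EpiSC (81.8% and 9.09%, all genes 37.5% and 31.9%), with a median of -1.07. Lss, which closes squalene epoxide to lanosterol, declined at every step of the transition, with 277, 327 and 309 CPM in EpiSC, 170.5, 180.1 and 187 at D3, 139, 132 and 141 at D5, 87.7, 75.4 and 75.98 at D8, 49.3, 45.7 and 47.7 in rES, and 97.9, 94.5 and 99.996 in ESC. Each group of the transition lay below the one before it without overlap, down to rES. The ESC libraries stood above both D8 and rES. The log2 difference from EpiSC was -2.68 ± 0.08, adjusted p = 3.09e-15 in rES and -1.64 ± 0.07, adjusted p = 1.32e-12 in ESC.

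Dhcr7, the reductase of the last step to cholesterol, had 233, 269 and 238 CPM in EpiSC, 95.4, 118 and 119 at D3, 126, 120.4 and 124 at D5, 111, 88.5 and 79.1 at D8, 76.8, 70.98 and 81.7 in rES, and 143, 142 and 139.8 in ESC. Every library outside EpiSC was below every EpiSC library, and the mean was lowest in rES. The log2 difference was -1.15 ± 0.11, adjusted p = 3.09e-08 at D3 and -1.69 ± 0.11, adjusted p = 1.56e-10 in rES. Its call at the step to rES, at -0.28 ± 0.11, adjusted p = 0.0264, was lost with RLE scaling, upper-quartile scaling, DESeq2, the 2 groups fitted alone, and without D8 replicate 1 or rES replicate 1 or 2 (adjusted p = 0.0566 to 0.335).

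Sc5d, the desaturase that acts just before Dhcr7, had 67.7, 74.9 and 63.4 CPM in EpiSC, 90.4, 83.4 and 85.7 at D3, 152, 161 and 171 at D5, 199, 173 and 127 at D8, 18.5, 15.1 and 17.6 in rES, and 36.4, 33.9 and 36.6 in ESC. It went up to D5 and D8 and then down below EpiSC, with rES lowest of all. It was higher at D8 than in EpiSC (log2 difference 1.27 ± 0.12, adjusted p = 2.39e-08) and lower in rES than in EpiSC (-2.01 ± 0.13, adjusted p = 1.11e-10). The rES libraries averaged 17.1 ± 1.80 CPM, against 166 ± 36.4 at D8 (log2 difference -3.28 ± 0.13, adjusted p = 1.88e-13).

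Hsd17b7, the ketoreductase of the demethylation steps, followed a like course, with 48.1, 55.4 and 50.9 CPM in EpiSC, 106, 101 and 85.4 at D3, 160.4, 156 and 169.7 at D5, 108, 104 and 88.1 at D8, 24.9, 23.8 and 26.6 in rES, and 28.2, 28.2 and 29.04 in ESC. D5 was highest, and rES and ESC were lowest. Against EpiSC, the log2 difference was 1.65 ± 0.09, adjusted p = 1.11e-11 at D5, -1.04 ± 0.09, adjusted p = 1.04e-08 in rES and -0.85 ± 0.09, adjusted p = 1.44e-07 in ESC. In Ebp, the sterol isomerase, EpiSC was the lowest group, with 14.4, 18.5 and 17.3 CPM in EpiSC, 30.6, 43.96 and 40.6 at D3, 29.4, 27.2 and 25.2 at D5, 28.99, 23.6 and 33.6 at D8, 62.8, 64.4 and 62.2 in rES, and 48.3, 46.02 and 42.6 in ESC. No library of another group reached down to EpiSC, and rES was highest. Ebp was called higher than EpiSC in all 5 groups, by a log2 difference that reached 1.91 ± 0.14, adjusted p = 8.82e-10 in rES.

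Of the other 6 sterol enzymes, 5 were lower in rES than in EpiSC, while Fdft1 was not called. Cyp51, the lanosterol demethylase, and Msmo1, the methyl sterol oxidase, had log2 differences from EpiSC of -1.22 and -1.36 in rES, both called. In ESC Msmo1 missed the threshold (-0.25 ± 0.13, adjusted p = 0.107). Sqle, squalene epoxidase, moved less through D8, at 281 ± 5.48, 382 ± 12.9 and 279 ± 44.5 CPM at D3, D5 and D8 against 343 ± 22.5 in EpiSC. It was called lower at D3 and D8 (-0.28 and -0.29, the second lost with the 2 groups fitted alone) and lower in rES (-1.07 ± 0.09, adjusted p = 3.46e-09). Nsdhl, which acts with Msmo1, was lower from D5 on. Tm7sf2, a sterol reductase, was lowest at D5 and D8 (-1.56 and -1.49) and shares 12.1% of its exon bases with Vps51 on the same strand. Fdft1, squalene synthase, was higher at D3, D5, D8 and in ESC (0.78). In rES it was called higher with RLE scaling, DESeq2, the 2 groups fitted alone and without EpiSC replicate 2 (log2 difference 0.25 to 0.34, adjusted p = 0.0016 to 0.0354). It shares 18.3% of its exon bases with Ctsb on the opposite strand. Its call at D3 (0.27) and that of Sc5d (0.33) were lost with upper-quartile scaling. Without EpiSC replicate 1 or 3 adjusted p was 0.0731 and 0.0728 for Fdft1, and without EpiSC replicate 1 or 3 or D3 replicate 1 it was 0.0566 to 0.0857 for Sc5d. Ctsb averaged 943 ± 39.9 CPM at D5 and 1921 ± 388 at D8, against 57.9 ± 1.90 in EpiSC, and its part in the counts of Fdft1 was not tested.

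The rES and the ESC differed in the synthesis enzymes. Of the 31 genes 17 were lower (54.8%) and 5 higher (16.1%) in rES than in ESC, where 33.5% of all genes were called, 17.9% lower and 15.6% higher. Among the 18 synthesis enzymes, 15 were lower (83.3%) and 1, Ebp, was higher. For 16 of the 18 the 3 rES libraries all lay below the 3 ESC libraries, as they did for 27.3% of all genes. The median log2 difference of the 18 was -0.65, against 0 over all genes. Without ESC replicate 3 the count of the 31 genes called higher was 3 and that called lower 16.

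Among the called genes the drop was widest in Mvd, at 34.5 ± 1.64 CPM in rES against 75.7 ± 7.77 in ESC (log2 difference -1.13 ± 0.15, adjusted p = 1.37e-05). Msmo1 averaged 124 ± 3.67 CPM in rES and 268 ± 16.3 in ESC (-1.11 ± 0.14, adjusted p = 7.39e-06). Sc5d differed by -1.06 ± 0.12, adjusted p = 4.57e-06, Lss by -1.03 ± 0.07, adjusted p = 1.73e-08 and Idi1 by -0.98. At the other end, Hmgcs1 overlapped between the groups, at 390.4 ± 9.37 CPM in rES and 424 ± 30.7 in ESC (-0.12 ± 0.08, adjusted p = 0.256), and Hsd17b7 missed the threshold (-0.18 ± 0.09, adjusted p = 0.134). The 15 enzymes called lower became 14 without rES replicate 3, and likewise without ESC replicate 3, Sqle being the one lost (adjusted p = 0.0612 and 0.0661). Without ESC replicate 3 Ebp was no longer called higher either (log2 difference 0.42, adjusted p = 0.0549). Fibroblast markers also differed between the groups: 6 of 9 were lower in rES and 1 higher, Col1a1 at 2.92 ± 0.941 CPM in rES against 79.2 ± 14.5 in ESC, with Dcn at 0 in rES. Their summed level was 215 to 231 CPM in rES and 218 to 264 in ESC. Of the 9 trophoblast markers 4 were higher and 1 lower in rES than in ESC, with summed levels of 171 to 177 CPM in rES and 86.5 to 94.6 in ESC. Of the 9 endoderm markers tested 4 were higher, at 18.3 to 20.9 CPM in rES and 10.3 to 13.5 in ESC for all 10 together. Of the 6 primed markers 3 were higher, at 228 to 241 CPM in rES and 152 to 159 in ESC. Of the 7 naive markers 1 was lower, at 3875 to 3915 CPM in rES and 4156 to 4309 in ESC. The part of these markers in the difference was not tested.

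**Figure D4:**
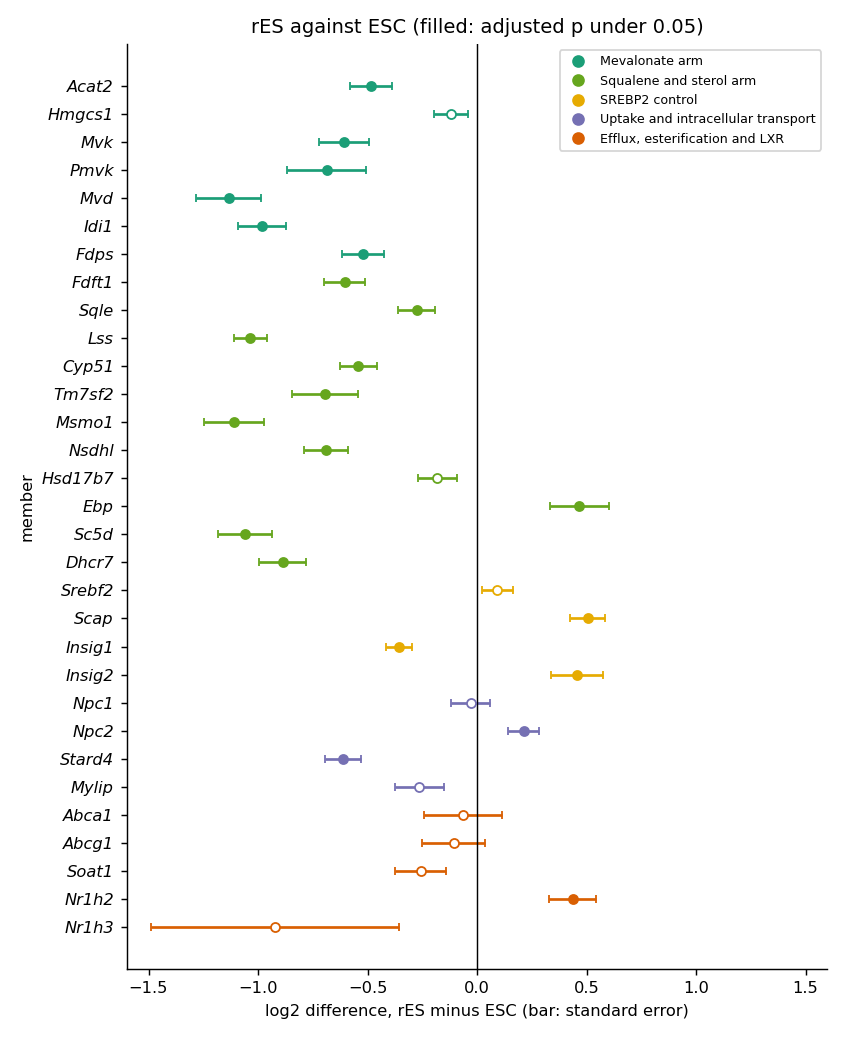
Log2 difference of rES minus ESC for each of the 31 genes, with bars of 1 standard error and filled points where adjusted p is under 0.05, coloured by role. The enzymes of both arms lie to the left of 0 except Ebp at 0.47, and the widest called drop is Mvd at -1.13.

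Of the 4 control genes of SREBP2, 1 was higher and 3 lower in rES than in EpiSC (25% and 75%, all genes 31.9% and 37.5%, median -0.51). Srebf2, which encodes SREBP2, had 813, 787 and 887 CPM in EpiSC, 613, 709 and 697 at D3, 583, 529 and 528 at D5, 485, 419 and 466 at D8, 518, 494 and 504 in rES, and 472, 477 and 473 in ESC. Every EpiSC library was above every other library. It was lower in every group than in EpiSC (log2 difference -0.71 ± 0.07, adjusted p = 5.11e-08 in rES and -0.81 ± 0.07, adjusted p = 1.12e-08 in ESC). Between rES and ESC it missed the threshold (0.09 ± 0.07, adjusted p = 0.336).

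Scap, the escort of SREBP2, went the other way, with 56.7, 51.96 and 58.5 CPM in EpiSC, 107, 109 and 127 at D3, 148, 149 and 140.4 at D5, 164, 136 and 139.7 at D8, 105, 105 and 101 in rES, and 73.3, 69.5 and 76.2 in ESC. Every library outside EpiSC was above every EpiSC library, D5 and D8 most. The log2 difference was 1.40 ± 0.08, adjusted p = 2.44e-11 at D8, and between rES and ESC it was 0.51 ± 0.08, adjusted p = 0.00011. It shares 13.2% of its exon bases with a gene on the opposite strand that is not among the symbols used here.

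Insig1, which holds SCAP back and is itself a target of SREBP2, had 335, 364 and 376 CPM in EpiSC, 131, 122 and 131 at D3, 279, 272 and 285 at D5, 204, 195 and 213 at D8, 182, 182 and 179 in rES, and 226, 233 and 237 in ESC. It dropped to 128 ± 5.38 CPM at D3 against 358 ± 21 in EpiSC (log2 difference -1.49 ± 0.06, adjusted p = 3.53e-13) and was back at 278 ± 6.44 CPM at D5 (D5 minus D3, 1.12 ± 0.06, adjusted p = 2.73e-11). The D3 libraries were below all others. In rES it was lower than in ESC (-0.36 ± 0.06, adjusted p = 0.000135). Insig2, the other protein that holds SCAP back, had 21.1, 23.2 and 21.6 CPM in EpiSC, 31.1, 25.9 and 24.4 at D3, 22.5, 24.6 and 27.5 at D5, 26.4, 30.7 and 23.04 at D8, 18.5, 16.5 and 17.97 in rES, and 13.6, 12.3 and 12.7 in ESC. The days overlapped each other, and ESC was lowest. It was lower in ESC than in EpiSC (-0.77 ± 0.12, adjusted p = 1.44e-05) and higher in rES than in ESC (0.46 ± 0.12, adjusted p = 0.00601). Its calls at D3, D8 and in rES against EpiSC were each lost under some other scaling or fit. Leaving out EpiSC replicate 1 or 3, or D3 replicate 1, gave adjusted p of 0.0714 to 0.17 at D3. Leaving out EpiSC replicate 1 or 3, or D8 replicate 2, gave 0.0789 to 0.209 at D8, and leaving out EpiSC replicate 2 or rES replicate 2 gave 0.0806 and 0.0907 in rES.

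The promoters of these genes were searched for short letter runs, since SREBP binds a short sterol regulatory element. RefSeq promoters on GRCm38.p6 were found for 25 of the 31 genes in 32 windows, and the 250 bases before each start were searched on both strands. The letters CACCCCAC, TCACNCCAC and TCACCCCA, which overlap each other, were counted together. Any of them stood in 9.38% of the 32 windows, in 11.1% of the 18 windows of synthesis enzymes and in 3.92% of all 32851 windows. The genes were Hmgcs1, Acat2 and Srebf2. CCAAT, the letters bound by the factor NF-Y, stood in 77.8% of the enzyme windows and 33.8% of all windows. GGGCGG, bound by Sp1, stood in 83.3% and 32.7%, and CACGTG, an E-box, in 16.7% and 6.02%. The stretches around the sterol letters are shown for all 3 genes, each of which had its highest mean in EpiSC. EpiSC was the highest group for 15 of the 31 genes. Among them Idi1, Lss, Cyp51, Msmo1, Dhcr7 and Mvd had windows with none of the sterol letters. The stretch around the E-box is shown for Insig1, which was lowest at D3. CACGTG also stood in windows of Abca1, Dhcr7, Hsd17b7, Sc5d and Scap, none of which was lowest at D3. The searched letters are in capitals, and ATTGG is CCAAT on the other strand.
Hmgcs1, chr13:119690184-119690252, plus strand: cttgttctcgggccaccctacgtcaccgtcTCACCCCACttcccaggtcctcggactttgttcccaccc
Srebf2, chr15:82147077-82147144, plus strand: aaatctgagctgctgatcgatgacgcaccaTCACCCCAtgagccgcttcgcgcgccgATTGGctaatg
Acat2, chr17:12960869-12960936, minus strand: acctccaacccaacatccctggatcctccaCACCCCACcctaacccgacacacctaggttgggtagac
Insig1, chr5:28071281-28071346, plus strand: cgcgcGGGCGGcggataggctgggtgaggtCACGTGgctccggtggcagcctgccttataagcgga
A match of letters is a description of the sequence. Binding was not measured.

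The 4 uptake and transport genes split by direction, 3 being higher and 1 lower than in EpiSC at D8 and likewise in rES, with medians of 1.54 and 0.66. Of all genes tested, 42.4% were higher and 34.5% lower at D8, and 31.9% higher and 37.5% lower in rES. Npc1 and Npc2, the lysosomal pair that lets cholesterol out of the lysosome, went up. Npc1 had 70.8, 60.4 and 70.01 CPM in EpiSC, 69.8, 77.99 and 78.3 at D3, 203, 186 and 197 at D5, 246, 223 and 190.4 at D8, 102, 99.3 and 96.2 in rES, and 93.9, 101 and 108 in ESC. Its D5 and D8 libraries were above all others, and D3 overlapped EpiSC. Relative to EpiSC, the log2 difference was 1.71 ± 0.09, adjusted p = 6.89e-12 at D8 and 0.56 ± 0.09, adjusted p = 2.18e-05 in rES.

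Npc2 had 135, 134 and 149.8 CPM in EpiSC, 171, 182 and 203 at D3, 317, 287 and 300.2 at D5, 379, 360.3 and 339 at D8, 251, 224 and 235 in rES, and 209, 204 and 199.9 in ESC. It stood above EpiSC in every group, with D8 highest. The log2 difference was 1.36 ± 0.07, adjusted p = 7.95e-12 at D8 and 0.76 ± 0.07, adjusted p = 3.69e-08 in rES. Between rES and ESC it was 0.21 ± 0.07, adjusted p = 0.0307, a call lost without rES replicate 1 or 3 or any 1 of the ESC libraries (adjusted p = 0.055 to 0.139).

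Stard4, a soluble carrier of sterol between membranes, fell with the enzymes, with 223, 233 and 209 CPM in EpiSC, 178, 154 and 148 at D3, 171, 172 and 181 at D5, 100.4, 105 and 88.1 at D8, 80.5, 74.6 and 71.96 in rES, and 119, 109.7 and 119 in ESC. EpiSC was highest and rES lowest, without overlap with any other group. Against EpiSC, the log2 difference was -1.55 ± 0.08, adjusted p = 1.03e-11 in rES, and between rES and ESC it was -0.61 ± 0.08, adjusted p = 1.61e-05. Mylip, the ubiquitin ligase that LXR switches on to remove lipoprotein receptors, rose instead, with 3.55, 3.68 and 4.56 CPM in EpiSC, 21.9, 20.1 and 21.5 at D3, 44.5, 46.97 and 37.1 at D5, 60.5, 61.9 and 51.7 at D8, 11.9, 12.6 and 14.1 in rES, and 15.4, 15.7 and 15.3 in ESC. It climbed over D3, D5 and D8 without overlap between days and was lower again in rES and ESC, which still lay above EpiSC. Relative to EpiSC, the log2 difference was 3.87 ± 0.13, adjusted p = 7.97e-15 at D8 and 1.70 ± 0.12, adjusted p = 4.5e-10 in rES.

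Of the 5 genes of efflux, esterification and LXR, 3 were higher and 1 lower than in EpiSC at D8 (median 0.86), and 3 were higher and 2 lower in rES (median 0.71). Of all genes tested, 42.4% were higher and 34.5% lower at D8, and 31.9% higher and 37.5% lower in rES. The exporters had the largest log2 differences of the 31 genes from EpiSC at D8. Abca1, which loads cholesterol onto lipid-poor apolipoprotein, had 1.85, 0.840 and 2.48 CPM in EpiSC, 87.3, 85.7 and 83.2 at D3, 544, 532 and 529.7 at D5, 787, 913 and 623 at D8, 121, 127 and 116 in rES, and 118, 124 and 139 in ESC. EpiSC was lowest, D8 was highest, and rES and ESC overlapped between D3 and D5. Against EpiSC, the log2 difference was 5.61 ± 0.23, adjusted p = 5.16e-13 at D3, 8.79 ± 0.26, adjusted p = 2.11e-15 at D8 and 6.11 ± 0.23, adjusted p = 1.12e-13 in rES. At the last step the level dropped to 121 ± 5.51 CPM in rES, against 775 ± 145 at D8 (log2 difference -2.67 ± 0.19, adjusted p = 4.41e-10).

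Abcg1, which exports cholesterol to mature lipoprotein, had 18.5, 11.7 and 19.9 CPM in EpiSC, 68.6, 77.5 and 79.03 at D3, 181, 186 and 178 at D5, 379, 415 and 301 at D8, 37.4, 40.4 and 37.1 in rES, and 38.9, 40.6 and 44.1 in ESC. It climbed over D3, D5 and D8 without overlap, and rES and ESC came back near but above EpiSC. The log2 difference was 4.45 ± 0.16, adjusted p = 4.43e-14 at D8 and 1.19 ± 0.15, adjusted p = 9.77e-07 in rES. Between rES and ESC the libraries of both exporters overlapped and both missed the threshold (Abca1 -0.06 ± 0.18, adjusted p = 0.843, and Abcg1 -0.11 ± 0.14, adjusted p = 0.615).

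Soat1, which esterifies cholesterol for storage, had 404, 382 and 409.8 CPM in EpiSC, 126, 107 and 94.96 at D3, 188, 185 and 186 at D5, 213, 215 and 155 at D8, 10.8, 10.6 and 11.3 in rES, and 12.7, 14.1 and 12.3 in ESC. EpiSC was highest, the 3 days stood between, and rES and ESC were below every other group, rES lowest. It averaged 10.9 ± 0.366 CPM in rES and 13.03 ± 0.920 in ESC, against 399 ± 14.96 in EpiSC (log2 differences -5.19 ± 0.13, adjusted p = 6.8e-16 and -4.93 ± 0.13, adjusted p = 1.31e-15). The widest drop of the 31 genes from EpiSC was this one, in both comparisons.

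Of the oxysterol receptors, Nr1h2, which encodes LXR beta, had 47.4, 42.4 and 53.1 CPM in EpiSC, 40.4, 48.7 and 42.9 at D3, 86.7, 71.5 and 73.5 at D5, 92.8, 73.7 and 92.6 at D8, 78.8, 73.6 and 81.3 in rES, and 57.96, 60.7 and 54.1 in ESC. D5, D8, rES and ESC stood above EpiSC, and D3 overlapped it. The log2 difference was 0.86 ± 0.11, adjusted p = 9.28e-07 at D8 and 0.44 ± 0.11, adjusted p = 0.00427 between rES and ESC. Its call in ESC against EpiSC (0.27) was lost without EpiSC replicate 1 or 2 or ESC replicate 1 or 2 (adjusted p = 0.0674 to 0.149). Nr1h3, which encodes LXR alpha, was scarce, with 1.56, 0.776 and 0.950 CPM in EpiSC, 4.68, 5.996 and 6.42 at D3, 0.738, 1.49 and 1.75 at D5, 1.64, 1.53 and 1.26 at D8, 0.0636, 0.544 and 0.122 in rES, and 0.450, 0.802 and 0.212 in ESC. D3 was above all others (log2 difference from EpiSC 2.35 ± 0.55, adjusted p = 0.0011). The rES libraries rest on 4, 33 and 8 counts. Without rES replicate 2 it was called lower in rES than in ESC (log2 difference -2.06, adjusted p = 0.01), and without ESC replicate 2 lower in ESC than in EpiSC (-1.65, adjusted p = 0.0279).

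Between neighbouring stages the genes moved in different ways. From D3 to D5, 13 of the 31 were higher and 10 lower at D5, with 59.5% of all genes called (29.9% higher, 29.6% lower). From D5 to D8, 4 were higher and 15 lower at D8, with 47.1% called (25.1% higher, 22% lower). The 4 higher were Abca1, Abcg1, Mylip and Npc2, of which Abca1 (0.53) lost its call without D5 replicate 2 or 3 or D8 replicate 2 (adjusted p = 0.0525 to 0.103), and 12 of the 18 enzymes were lower with 0 higher. Npc1 was called higher as well with RLE or upper-quartile scaling, DESeq2 and without D8 replicate 3 (log2 difference 0.22 to 0.26, adjusted p = 0.0159 to 0.0496). From D8 to rES, 4 were higher and 22 lower in rES, with 71.1% called (32.7% higher, 38.4% lower). The 4 higher in rES were all enzymes, Acat2, Hmgcs1, Ebp and Tm7sf2, with log2 differences of 0.45, 0.56, 1.14 and 0.74. Srebf2 was called higher as well with RLE or upper-quartile scaling, DESeq2 and without D8 replicate 1 (log2 difference 0.18 to 0.31, adjusted p = 0.000478 to 0.0458). With upper-quartile scaling Nsdhl was also called higher (0.27, adjusted p = 0.0282). Soat1, Sc5d, Abcg1, Abca1 and Mylip were the widest called drops at this step among genes above 1 CPM in both groups (-4.15, -3.28, -3.25, -2.67 and -2.17). The marker lists of trophoblast, fibroblast, endoderm and erythroid cells were lower in rES than at D8 as well, with 6 markers of each list called lower, and their part in the drops was not tested.

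Related genes outside the 31 were followed through 5 further lists, 71 genes in all. Among 6 other genes of sterol synthesis, 4 were higher and 2 lower at D8 than in EpiSC, with a median log2 difference of 0.53, where the median of all genes was 0.18 and 42.4% of all genes were called higher and 34.5% lower. Por, the reductase that hands electrons to Cyp51 and Sqle, averaged 439.9 ± 47.1 CPM at D8 against 62.1 ± 2.45 in EpiSC (log2 difference 2.82 ± 0.09, adjusted p = 9.72e-15). Cyb5r3, which feeds Sc5d and Msmo1 through cytochrome b5, was higher at D8 than in EpiSC by a log2 of 2.62 ± 0.09, adjusted p = 1.46e-14. Both were lower in rES than at D8 (-2.81 and -2.48). Lbr, the second sterol reductase beside Tm7sf2, was lower at D8 than in EpiSC (-1.50 ± 0.08, adjusted p = 5.11e-12) and higher again in rES than at D8 (1.01). Cyb5b, a cytochrome b5, was lower in rES than in ESC (-0.81 ± 0.06, adjusted p = 1.98e-08).

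Of 16 other genes of SREBP processing and sterol degradation, 10 were higher and 3 lower at D8 than in EpiSC (62.5% and 18.8%, all genes 42.4% and 34.5%, median 0.61), and 7 were lower with 1 higher in rES than in ESC (43.8% and 6.25%, all genes 17.9% and 15.6%). Erlin1, of the erlin complex of the endoplasmic reticulum, was higher at D8 than in EpiSC (2.41 ± 0.09, adjusted p = 4.18e-14). Rnf145, a sterol-regulated ubiquitin ligase, was lower (-1.48 ± 0.08, adjusted p = 5.4e-12). Mbtps1, the first protease that cleaves SREBP, averaged 285 CPM in rES and 398 in ESC (-0.48 ± 0.05, adjusted p = 1.03e-06).

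Of 20 other genes of uptake and intracellular transport, 16 were higher and 1 lower at D8 than in EpiSC (80% and 5%, all genes 42.4% and 34.5%, median 1.30 against 0.18 over all genes), and 15 were lower with 2 higher in rES than at D8 (75% and 10%, all genes 38.4% and 32.7%). Gramd1c, of the family that carries cholesterol from the plasma membrane, averaged 80.4 CPM at D8 and 2.78 in EpiSC (4.84 ± 0.17, adjusted p = 3.08e-14). Scarb2, a lysosomal membrane protein, was higher there by a log2 of 3.16 ± 0.08, adjusted p = 5.21e-16. In rES 8 of the 20 were higher and 7 lower than in EpiSC (40% and 35%, all genes 31.9% and 37.5%, median -0.04 against -0.09). Among the lower ones were the lipoprotein receptors Vldlr and Lrp8 (-4.56 ± 0.17, adjusted p = 7.81e-14, and -3.13 ± 0.13, adjusted p = 2.35e-13). The lysosomal lipase Lipa, which frees cholesterol from esters, was lower there as well (-2.35 ± 0.13, adjusted p = 1.79e-11).

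Of 17 other genes of efflux, oxysterols and lipoproteins, 10 were higher and 1 lower at D8 than in EpiSC (58.8% and 5.88%, all genes 42.4% and 34.5%, median 2.06 against 0.18 over all genes). Pltp, a phospholipid transfer protein and LXR target, was higher at D8 by a log2 of 2.99 ± 0.08, adjusted p = 1.08e-15, and Rxra, the partner receptor of LXR, by 2.72 ± 0.10, adjusted p = 5.69e-14. Abca3, a phospholipid transporter, was higher by 3.40 ± 0.09, adjusted p = 9.04e-16. Lpcat3, a phospholipid remodelling enzyme and LXR target, was higher at D5 than in EpiSC (2.05 ± 0.09, adjusted p = 5.2e-13) and lower in rES than in ESC (-0.56 ± 0.09, adjusted p = 8.5e-05). Of the 12 other genes of the prenyl branch, 4 were higher and 5 lower in rES than in EpiSC (33.3% and 41.7%, near the 31.9% and 37.5% of all genes, median -0.08 against -0.09). The farnesyltransferase subunit Fntb was higher (1.22 ± 0.08, adjusted p = 1.45e-10) and Coq2, of ubiquinone synthesis, lower (-0.86 ± 0.08, adjusted p = 5.01e-08).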

How the data were processed

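Ribosomal RNA was removed by probe hybridization and RNase H, and libraries were sequenced as paired reads of 150 bases, per the labels' protocols. The tools were bcl2fastq, Trim Galore and HISAT2 and the build was mm10, per the submitters' processing notes. The table deposited by the authors holds 1 unscaled whole number for each symbol and library, taken for expected counts (estimated counts), because low values bunch: the median library had 157 genes at a count of 3, 314.5 at 4 and 105.5 at 5. How reads were counted, on which annotation and with which strand setting is not given in the sources used here, and overlapping genes may share counts.

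All 18 libraries were fitted together in R 4.3.3 with edgeR 4.0.16, which uses limma 3.58.1, after filterByExpr and TMM scaling (factors 0.945 to 1.05), and tested with edgeR's quasi-likelihood F test and p-values adjusted by Benjamini-Hochberg over the 17545 genes in every comparison. The prior count was 2, and standard errors are the absolute log2 difference over the square root of F. The steps were tested on simulated data. Gene models were those of GENCODE vM21 (GRCm38, that is mm10), and promoters from RefSeq on GRCm38.p6. Alternatives were RLE and upper-quartile scaling, DESeq2 1.42.0, no low-count filter, the 2 groups fitted alone, a replicate block, counts divided by 4, and each library left out.

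The 31 genes, the related and marker lists and the tests were chosen with earlier results of these data known. Library values are given for the 22 genes with the widest range of group means in each role and at least 1 CPM. Related genes are named from up to 4 per list and comparison that were called and had at least 5 CPM. Other named genes were singled out after their values were seen.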

Additional observations from a re-analysis of the deposited data

Results flagged for a closer look

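For 3 of the 31 genes the difference from EpiSC was called one way at D8 and the other way in rES, and rES against D8 was called as well. All calls are by the same edgeR quasi-likelihood test with Benjamini-Hochberg adjustment. The 3 genes were picked by these calls, so the p-values below describe them and add no further support. The share of all genes that turn in this way was not computed. Sc5d, the desaturase, had a log2 difference from EpiSC of 1.27 at D8 and -2.01 in rES, and rES minus D8 was -3.28 ± 0.13, adjusted p = 1.88e-13, with all 3 rES libraries below all 3 of D8. Hsd17b7, the ketoreductase, had 0.96 at D8 and -1.04 in rES, and rES minus D8 was -1.99 ± 0.09, adjusted p = 1.35e-12, again without overlap. Insig2 had 0.28 at D8 and -0.31 in rES, and rES minus D8 was -0.60 ± 0.12, adjusted p = 0.000172. Both of its differences from EpiSC were lost under other settings, the one at D8 with upper-quartile scaling (adjusted p = 0.242) and the one in rES with RLE scaling (adjusted p = 0.211). The marker lists of trophoblast, fibroblast, endoderm and erythroid cells were higher at D8 than in rES, and their part in these turns was not tested.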

How the results depend on the processing

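Over 279 differences of the 31 genes in 9 comparisons, 230 were called, 18 of these lost the call in at least 1 alternative (11 of them outside the fits with a library left out), 17 gained one, and 0 turned round. The largest lost call had a log2 size of 0.56. The count of the 31 genes higher in rES than in ESC was 5 and became 3 without ESC replicate 3, the range over libraries left out being 3 to 5. The count higher at D3 than in EpiSC was 12 and became 8 without EpiSC replicate 1 and also with upper-quartile scaling. The other counts of the 31 genes and of all genes stayed within 1.5 times their value. RLE scaling moved the median of all genes by 0.145 (log2) in rES and 0.111 in ESC against EpiSC, DESeq2 by 0.14 and 0.107. Upper-quartile scaling moved it by -0.175 at D5 and -0.129 at D8 against EpiSC, by -0.108 from D3 to D5 and by 0.161 from D8 to rES. The sources used here do not say whether libraries with a shared replicate number belong together. No pairing was seen in the counts: residuals of the 45 pairs of libraries with a shared number correlated at a median of -7.3e-05 (range -0.0607 to 0.0533). For each library the residual correlations with libraries of other groups were also averaged by replicate number. The highest of the 3 averages was that of the library's own number for 7 of 18 libraries. A fit with the replicate block gave 17 of the 31 genes lower and 5 higher in rES than in ESC and changed no call of the 31. Nr1h3, at 0.0636 to 0.544 CPM in rES, had 4, 33 and 8 counts in the 3 libraries there.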
